A study of Mus musculus with 19 samples.

Results

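The early response of newborn mouse retina cells to added Pou3f1 was described across genes, 48 h after electroporation. Members were all genes whose mean normalized count over the 48 h libraries was at least 10, which left 14381 of the 22294 genes listed for this comparison and of the 35734 genes listed anywhere in the series. Wild-type CD1 pups received plasmid DNA (3 µg per µl) by electroporation of the eye in vivo on postnatal day 1, carrying Gfp alone as the control or Pou3f1. After 48 h the retinas were dissociated, GFP-positive cells were sorted by flow cytometry, and several sorted samples were combined to about 150000 cells per replicate. There were 3 Gfp and 3 Pou3f1 libraries, out of 19 in 6 groups in the whole series. Both groups share the strain, the electroporation and the sort, and differ in the plasmid. The promoter on the plasmids is not given in the sources used here, and the labels name no separate animals, so the p-values reflect no more than the spread between these pooled replicates, which may be technical. The question addressed is which genes respond first, well before the cells reach their mature state.

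Pou3f1 (also called Oct-6) is a class III POU transcription factor. Such factors bind DNA through a POU-specific domain joined to a homeodomain, and they recognise the octamer word and related pairs of its parts. Pou3f1 is best known from myelinating Schwann cells and from early neural commitment, and the series concerns its part in guiding retinal axons across the midline of the brain. In the newborn retina the electroporated cells are mostly progenitors and their young daughters, which go on to form rods, bipolar cells, amacrine cells and glia.

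The labelled tissue was checked against its markers. All 14 listed members of the newborn retina marker list had a mean count of at least 10, with a median of 6463 in the authors' deposited table, led by Ccnd1 at 36705, Otx2 at 15296 and Crx at 10442. Markers of other cells differed in level. Red blood cell genes summed to a mean count of 21.5 over 7 genes, lens genes to 61.2 over 13, and microglia and macrophage genes to 405 over 14 in the authors' deposited table. Fibroblast and sclera genes summed to 288 over 7, of which Pdgfrb gave 211, and astrocyte and oligodendrocyte genes to 1842 over 10, of which Mbp gave 1278. In the pigment epithelium list, which summed to 2527 over 10 genes, Rlbp1, also a gene of Müller glia, gave 2372, while the defining enzymes Lrat and Rpe65 stood at 1.02 and 0.857. The vessel list held 1 abundant gene, Kdr, at 11683, while the remaining vessel members summed to 619 in the authors' deposited table. In a bulk sample, fewer cells of a type and less RNA per cell cannot be told apart.

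At 48 h, 217 genes were higher and 229 lower in Pou3f1 cells at the authors' adjusted p under 0.05, that is 1.51% and 1.59% of the 14381 genes tested. Of the 217, 76 reached 2-fold, and of the 229, 30 did in the authors' deposited table. Below a mean count of 10000 the rises lay more often among rarer transcripts, where called changes of both directions were larger. The median SE of all genes was 0.286 from 10 to 100 and 0.157 from 1000 to 10000. A rarer gene thus needs a larger change to be called, so the sizes of called changes do not describe the response. Of the genes with a mean count from 10 to 100, 51 rose and 13 fell, with medians of 1.07 and -1.08. From 100 to 1000 the medians were 0.87 and -0.84, and from 1000 to 10000 there were 34 rises and 119 falls with medians of 0.63 and -0.66. Among the 130 genes of 10000 or more, 11 (8.46%) rose and 6 (4.62%) fell, the highest shares of the 4 ranges. The median log2 fold change over all members was -0.01. Values per library are not part of the deposited table, so each value below is the authors' log2 fold change of Pou3f1 over Gfp with its standard error (SE), without the level in each sample. The authors' fold changes are shrunken toward 0, so sizes are understated, most of all where values are least certain, as for rare transcripts.

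**Figure D1:**
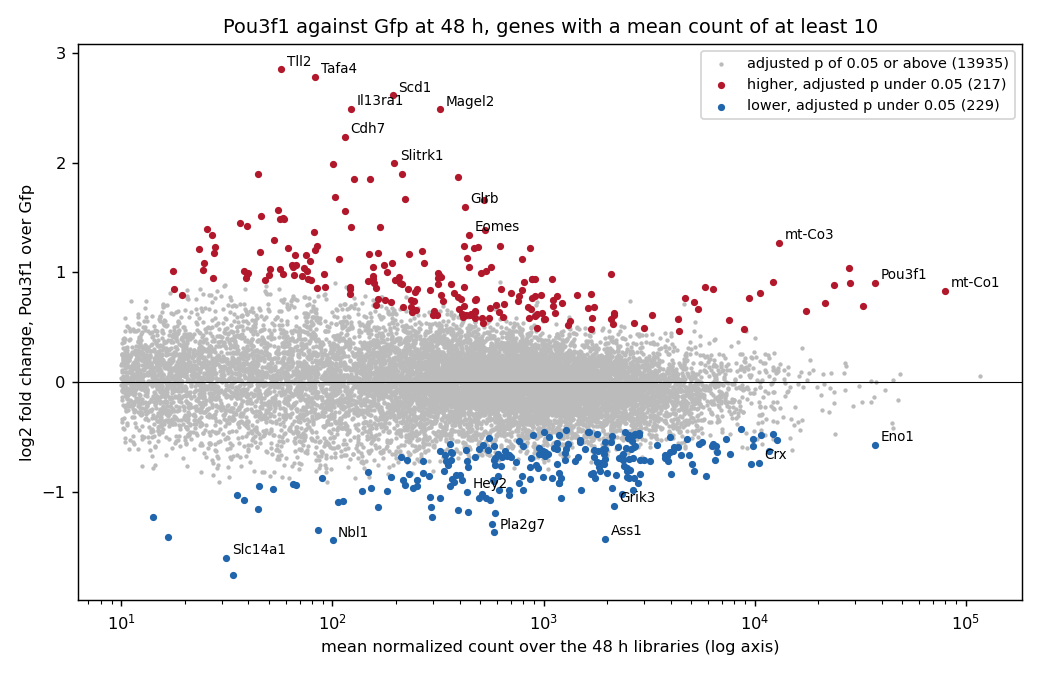
Each point is 1 gene, with its mean normalized count over the 48 h libraries on a log axis and its log2 fold change (Pou3f1 over Gfp) from the authors' deposited table. The 217 higher genes (red) reach 2.85 for Tll2 and lie mostly among rarer transcripts, and the 229 lower genes (blue) lie mostly among abundant ones. At a mean count of 10000 or more, 11 genes are higher and 6 lower.

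Pou3f1 itself was among the most abundant genes at 48 h, averaging 37279 normalized counts, and its log2 fold change was 0.91 ± 0.26 (adjusted p = 0.0233) in the authors' deposited table. That is 1.87-fold on the shrunken scale. Its SE of 0.26 was wide beside a median SE of 0.152 for genes with a mean count of 10000 or more. The size of the rise in Pou3f1 cannot be read from this value. The direction of the whole table was read from this gene, since the header names none, so its own sign is no check. Of the 10 POU factor genes among the members, Pou6f1, a class VI POU factor, was the other that rose (0.58 ± 0.17), and none fell. The largest rises on the shrunken scale belonged to other genes. Tll2, a secreted metalloprotease of the tolloid family, rose by 2.85 ± 0.29 at a mean count of 57.3. The smallest adjusted p was that of Magel2, an imprinted gene whose protein works with ubiquitin ligases, with a log2 fold change of 2.49 ± 0.24 (adjusted p = 4.77e-20) in the authors' deposited table. Ddx4, an RNA helicase known from germ cells, and Cd247, a signalling chain of the T cell receptor, stood at 1.99 ± 0.26 and 1.90 ± 0.29. Transcripts of the membrane proteins Tmem196 (1.85 ± 0.23) and Dcbld1 (1.13 ± 0.17) rose as well. The strongest falls by adjusted p were those of Ass1, which makes argininosuccinate from citrulline, and of Diras2, a small Ras-like GTPase, at -1.43 ± 0.19 and -0.98 ± 0.16 in the authors' deposited table.

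**Figure D2:**
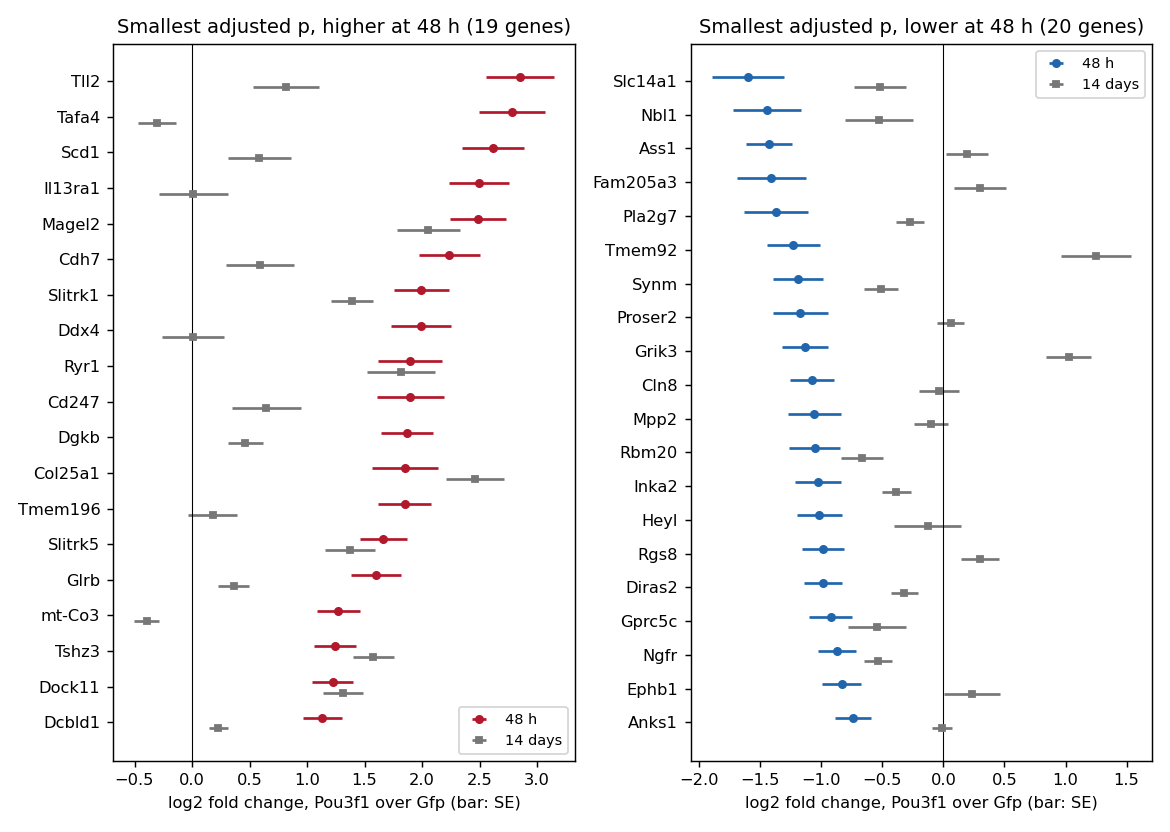
Log2 fold changes (Pou3f1 over Gfp, bars are SE) of genes with the smallest adjusted p at 48 h, 19 of them higher and 20 lower, circles, beside the same genes at 14 days, squares, all from the authors' deposited tables. Col25a1 and Tshz3 are higher at both times, while Tafa4, Il13ra1 and Ddx4 stand near or below 0 at 14 days and Grik3 and Tmem92 change sign.

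Among the 5 themes under which genes were listed, surface proteins had the most calls. Of 1017 members on the surface lists, 43 rose and 39 fell, which is 4.23% and 3.83% against 1.51% and 1.59% of all genes, with a list median of -0.06.

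Leucine-rich repeat adhesion proteins sit at synapses and in growing axons. Of 46 members, 6 rose, 4 fell and 36 did not pass, with a median of -0.14. The rises were led by 3 Slitrk genes. Slitrk1 stood at 1.99 ± 0.24 (adjusted p = 1.91e-13), Slitrk4 at 1.69 ± 0.28 and Slitrk5 at 1.66 ± 0.21 in the authors' deposited table. Lrrtm4 (1.12 ± 0.29) and Lrrtm1 (0.60 ± 0.15), postsynaptic partners of neurexins, and Flrt3 (0.90 ± 0.21), which binds latrophilins and Unc5 receptors, rose too. The falls were of Elfn1 (-1.02 ± 0.26), which recruits metabotropic glutamate receptors across the synapse, of the Nogo receptor relative Rtn4rl2 (-0.99 ± 0.29), of Lrit3 (-0.94 ± 0.28), a protein of the photoreceptor to bipolar cell synapse, and of Lrrc4 (-0.62 ± 0.17). The neurexin gene Nrxn3 fell, at -0.98 ± 0.22, in the authors' deposited table.

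Cadherins and protocadherins, which bind like molecules on neighbouring cells, had 7 rises and 3 falls among 97 members, with a median of -0.16. The type II cadherins Cdh7 (2.24 ± 0.27) and Cdh10 (1.41 ± 0.28), the protocadherins Pcdh20 (1.56 ± 0.29) and Pcdh7 (1.05 ± 0.22), and the desmosomal cadherin Dsc2 (1.29 ± 0.30) rose in the authors' deposited table. Cdh3, which encodes P-cadherin, fell (-1.08 ± 0.29), as did Pcdh15 (-0.72 ± 0.22), a cadherin of photoreceptor and hair cell links, and Pcdhgb7 (-0.72 ± 0.20), whose cluster shares exons so that reads may be split between its members. In the immunoglobulin family 3 of 49 rose and 3 fell. Alcam, an adhesion molecule of growing axons, was at 1.67 ± 0.26, and the contactins Cntn2 and Cntn3 were at 1.07 ± 0.27 and 1.07 ± 0.29. Sdk1, a layer-specific adhesion molecule of the inner retina, stood at -0.86 ± 0.22, Mcam at -0.60 ± 0.17 and Jam2 at -0.49 ± 0.15 in the authors' deposited table.

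Called matrix genes were mostly falls. Of 110 extracellular matrix members, 2 (1.82%) rose, 8 (7.27%) fell and 100 were not called, against 1.51% and 1.59% of all genes. The list median was -0.07, with 48 members above 0. At an unadjusted p under 0.05 in the authors' DESeq2 table, 16 were higher and 19 lower. The risers were Col25a1, a collagen anchored in the membrane of neurons (1.85 ± 0.29), and the protease Adamts10 (0.87 ± 0.20). Tnr, which encodes tenascin R of the nets around neurons, fell (-1.14 ± 0.26), and so did the metalloprotease inhibitor Timp3 (-0.97 ± 0.23). Sparcl1, a synapse-promoting secreted protein of glia, was at -0.93 ± 0.29 and the gelatinase Mmp2 at -0.82 ± 0.24 in the authors' deposited table. Both integrin calls were falls, Itga2 (-0.99 ± 0.25) and Itgb5 (-0.58 ± 0.17), among 21 integrin genes. The proteoglycan Sdc1 rose (0.996 ± 0.17).

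Axon guidance genes were called in both directions at 48 h. Of 31 semaphorin, plexin and neuropilin genes, Plxdc2 (1.05 ± 0.18) and Sema6c (0.71 ± 0.18) rose, and Sema5a (-0.92 ± 0.19) and Plxna2 (-0.84 ± 0.18) fell, 6.45% each way against the 1.51% and 1.59% of all genes. Of 21 ephrin and Eph genes none rose and 2 (9.52%) fell. One of them was Ephb1 (-0.83 ± 0.16, adjusted p = 5.59e-05), the receptor known for steering retinal axons to the same side of the brain, and the other Epha8 (-0.58 ± 0.16). Among 17 Slit, Robo and netrin genes Ntn4 rose (0.54 ± 0.16) and Slit1 fell (-0.64 ± 0.20), 5.88% each, in the authors' deposited table. At 14 days 14, 13 and 8 members of these 3 lists were higher and 2, 0 and 2 lower, against 12.7% of all genes higher and 10.3% lower in that table.

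Genes of receptors and channels for fast signalling also changed. Glrb, the beta subunit of the glycine receptor, rose by 1.60 ± 0.22 (adjusted p = 2.09e-10), and the GABA-A receptor gene Gabre by 1.24 ± 0.27. Grik3, a kainate receptor subunit, was the 1 called gene of 26 glutamate receptor genes and stood at -1.13 ± 0.19. Chrnb4, a nicotinic receptor subunit, was at -0.50 ± 0.15. Among 60 potassium channel genes Kcns2 (0.98 ± 0.29), Kcnc2 (0.76 ± 0.23) and Kcnab3 (0.65 ± 0.19) rose and Kcnd3 (-0.73 ± 0.20) fell. The sodium channel gene Scn1a (1.04 ± 0.28) and the calcium channel subunit gene Cacna2d1 (0.94 ± 0.18) were higher, and Cacng3, an accessory protein of AMPA receptors, was lower (-0.88 ± 0.22) in the authors' deposited table. Best1, a chloride channel best known from pigment epithelium, was at 1.398 ± 0.29 with a mean count of 25.6. It was the 1 called gene of the 6 pigment epithelium markers among the members, of which 2 were above 0, with a median of -0.18. The part of that tissue in the value of Best1 was not tested.

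G protein coupled receptors and transporters were the last of the surface lists. On the receptor list of 87 genes 4 (4.6%) rose and 3 (3.45%) fell, against 1.51% and 1.59% of all genes. The adhesion receptor Adgrg2 (1.51 ± 0.29), the serotonin receptor Htr1b (1.37 ± 0.29), the orphan Gpr22 (1.05 ± 0.29) and the nucleotide sugar receptor P2ry14 (0.80 ± 0.25) rose, and Gprc5c (-0.92 ± 0.18), Gpr158 (-0.95 ± 0.28) and Adgra2 (-0.76 ± 0.17) fell, of 87 genes on that list. Of 253 solute carriers, 6 rose and 4 fell, shares of 2.37% and 1.58%, of which the share of falls is that of all genes. The sodium-calcium exchanger Slc8a2 (1.24 ± 0.23), the monocarboxylate carrier relative Slc16a9 (1.03 ± 0.30) and the lysosomal amino acid sensor Slc38a9 (0.84 ± 0.18) rose in the authors' deposited table. The urea transporter Slc14a1 had one of the largest falls of all, -1.60 ± 0.30 at a mean count of 31.5. Slc1a2, a glutamate transporter, fell (-0.51 ± 0.16), and so did the sterol exporter Abcg1 (-0.71 ± 0.16) in the authors' deposited table.

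**Figure D3:**
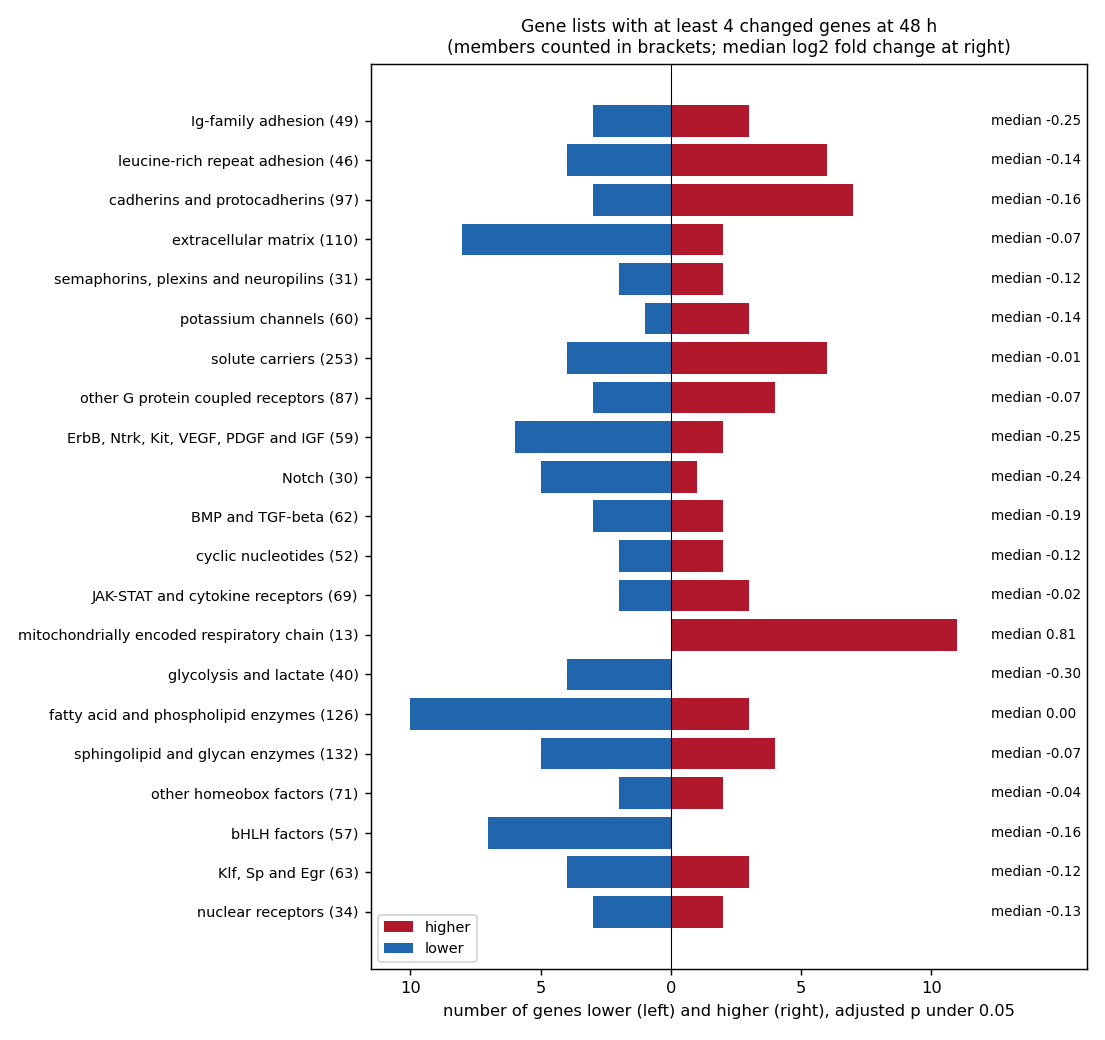
Number of genes lower (blue, to the left) and higher (red, to the right) at 48 h in lists with at least 4 changed genes, with the number of members in brackets and the list's median log2 fold change at right. Mitochondrially encoded genes have 11 rises and no fall, while glycolysis, bHLH factor and Notch genes stand almost wholly on the lower side.

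Promoters of called genes were searched for the words that POU factors bind, ATGCAAAT (the octamer) and GCATTAAT, GCATNNTAAT or GCATNNNTAAT (GCAT and TAAT pairs), on both strands. RefSeq windows on GRCm38.p6, from 250 bases before to 50 after a start, matched 163 of the 217 higher and 167 of the 229 lower genes by symbol. An octamer lay in the window of 6 higher genes (3.68%) and 5 lower genes (2.99%), against 1.67% of all matched members and 1.74% of all 32851 windows. A pair lay in 0.613% of the higher and 1.8% of the lower genes, against 0.922% of matched members and 1.42% of all windows. No word of 1 kind overlapped another in the windows printed here. A match is a description of these letters, not a binding site. The 4 called genes with the smallest adjusted p and such a word are shown because they are those in which it can be seen beside a strong change, with the octamer in capitals: Col25a1, Tent5a, which encodes a poly(A) polymerase (1.17 ± 0.25), Nrxn3, and Ermn, a cytoskeletal protein of myelinating cells (1.05 ± 0.24), with values from the authors' deposited table.
Col25a1 (chr3:130180595-130180894, plus strand): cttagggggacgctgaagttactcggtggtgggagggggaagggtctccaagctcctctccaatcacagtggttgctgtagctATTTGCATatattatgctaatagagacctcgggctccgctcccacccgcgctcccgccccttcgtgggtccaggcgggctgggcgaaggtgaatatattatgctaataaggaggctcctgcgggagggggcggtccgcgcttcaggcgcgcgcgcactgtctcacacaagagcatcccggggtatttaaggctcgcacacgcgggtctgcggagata
Tent5a (chr9:85327101-85327400, minus strand): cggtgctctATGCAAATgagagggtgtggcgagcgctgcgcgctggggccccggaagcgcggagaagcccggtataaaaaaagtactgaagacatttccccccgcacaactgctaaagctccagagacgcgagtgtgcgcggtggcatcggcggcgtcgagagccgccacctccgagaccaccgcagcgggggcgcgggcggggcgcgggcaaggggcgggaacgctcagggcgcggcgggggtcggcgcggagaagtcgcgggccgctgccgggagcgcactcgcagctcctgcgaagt
Nrxn3 (chr12:89812233-89812532, plus strand): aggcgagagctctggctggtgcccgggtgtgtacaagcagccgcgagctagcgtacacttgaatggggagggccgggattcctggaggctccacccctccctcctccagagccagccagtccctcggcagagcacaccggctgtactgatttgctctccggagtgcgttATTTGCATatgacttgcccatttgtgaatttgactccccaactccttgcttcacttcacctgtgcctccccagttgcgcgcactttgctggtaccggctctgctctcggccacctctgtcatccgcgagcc
Ermn (chr2:58052815-58053114, minus strand): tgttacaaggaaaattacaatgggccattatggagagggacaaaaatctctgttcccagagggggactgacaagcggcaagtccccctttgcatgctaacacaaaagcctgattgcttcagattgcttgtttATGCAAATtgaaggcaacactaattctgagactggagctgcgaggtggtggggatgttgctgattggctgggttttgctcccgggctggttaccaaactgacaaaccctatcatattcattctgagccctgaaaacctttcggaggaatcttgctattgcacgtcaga
Counted from the start site, the octamer of Col25a1 begins at position -167 and reads on the opposite strand, as does that of Nrxn3 at -81. In Tent5a and Ermn it reads on the gene's own strand, from positions -241 and -118. Of these 4 genes 3 rose and Nrxn3 fell.

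Signalling genes had 23 rises and 30 falls among 876 members (2.63% and 3.42%, median -0.10), against 1.51% and 1.59% of all genes. Among secreted ligands, Tafa4, a chemokine-like neurokine, rose by 2.78 ± 0.29 (adjusted p = 1.77e-18), and averaged 83.0 counts in the authors' deposited table. The neuropeptide gene Npy (0.94 ± 0.19), the ErbB ligands Nrg1 (0.98 ± 0.30) and Nrg3 (1.01 ± 0.27), the activin subunit Inhba (0.68 ± 0.20) and the follistatin-like gene Fstl5 (1.01 ± 0.26) rose as well. Nbl1, a secreted inhibitor of BMPs, had one of the largest falls, -1.44 ± 0.28, and Bmp3 (-0.88 ± 0.26) and Nxph4 (-0.68 ± 0.20), a ligand of neurexins, also fell in the authors' deposited table.

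Receptor genes were called in both directions. The JAK-STAT pathway carries signals from the receptor to the nucleus through STAT proteins. In the list of cytokine receptors and this pathway, 3 of 69 (4.35%) rose and 2 (2.9%) fell, against 1.51% and 1.59% of all genes. The list median was -0.02, with 33 genes above 0. Il13ra1, a receptor chain for interleukins 4 and 13, stood at 2.49 ± 0.26 (adjusted p = 2.26e-18), the prolactin receptor Prlr at 1.18 ± 0.28 and the growth hormone receptor Ghr at 0.97 ± 0.27 in the authors' deposited table. The falls were of Tnfrsf19 (-0.89 ± 0.19) and of Il17rd (-0.63 ± 0.18), an inhibitor of FGF signalling. In the growth factor list, where 6 of 59 genes (10.2%) fell and 2 (3.39%) rose (median -0.25), every fall was of a receptor. They were Ngfr (-0.87 ± 0.16), the low-affinity neurotrophin receptor, Ror1 (-0.77 ± 0.21), Kit (-0.68 ± 0.15), the VEGF receptor Kdr (-0.63 ± 0.15), the insulin receptor Insr (-0.49 ± 0.15) and the collagen receptor Ddr1 (-0.49 ± 0.15), and the 2 rises were the ligands Nrg1 and Nrg3. Kdr is also a vessel marker. The 10 vessel members had a median of -0.37, 2 of them were above 0, and 4, Kdr included, were lower and 1 higher at an unadjusted p under 0.05. The other 9 did not pass after adjustment, among them Eng (-0.76 ± 0.26), Tek (-0.51 ± 0.24) and Cdh5 (-0.44 ± 0.21), at mean counts of 20.5, 10.4 and 14.9 in the authors' deposited table. The part of vessel cells in the value of Kdr was not tested.

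The Notch pathway keeps retinal progenitors undifferentiated by inducing Hey and Hes repressors. Of 30 Notch genes, 5 fell and 1 rose, shares of 16.7% and 3.33% against the 1.59% and 1.51% of all genes, with a median of -0.24. The receptor Notch1 (-0.53 ± 0.15), the feedback gene Nrarp (-0.63 ± 0.19) and the 3 target repressors Heyl (-1.02 ± 0.18), Hey2 (-0.998 ± 0.21) and Hey1 (-0.62 ± 0.19) fell in the authors' deposited table. Dner, a Notch ligand of neurons, rose (0.62 ± 0.19). Hes1, the best known target in progenitors, had a log2 fold change of 0.43 ± 0.15 (adjusted p = 0.0807) and did not pass in the authors' deposited table.

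Other developmental pathways showed 1 to 5 calls each, so their genes are single values. Rises and falls were 3.23% and 4.84% of 62 BMP and TGF-beta genes, and 1.92% each of 52 Wnt genes. They were 2.04% and 4.08% of 49 FGF and Ras-ERK genes. Of 15 Hedgehog genes 1 (6.67%) fell. The shares of all genes were 1.51% and 1.59%. Besides the BMP antagonist, Id3, a target of BMP signalling that blocks bHLH factors, fell (-0.60 ± 0.16). In the Wnt list the receptor Fzd1 rose (0.74 ± 0.20) and the inhibitor Nkd1 fell (-0.74 ± 0.17). In the Hedgehog list the coreceptor Cdon fell (-0.69 ± 0.14). In the FGF and Ras-ERK list Fgf13, an intracellular member of its family, rose (0.58 ± 0.17), and the phosphatase Dusp16 fell (-0.67 ± 0.14) in the authors' deposited table.

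Inside the cell, several genes of second messengers changed. Ryr1, the calcium release channel of the endoplasmic reticulum, rose by 1.90 ± 0.28, the diacylglycerol kinase Dgkb by 1.87 ± 0.23, the phospholipase-like Plcl2 by 1.22 ± 0.21 and the cGMP-dependent kinase Prkg2 by 1.45 ± 0.30 in the authors' deposited table. The inhibitory G protein subunit Gnai1 (0.998 ± 0.20) and the neuronal gamma subunit Gng3 (0.81 ± 0.21) rose, while Rgs8, which shortens G protein signals, fell (-0.99 ± 0.17). The phosphodiesterases Pde7b (-0.89 ± 0.21) and Pde3a (-0.68 ± 0.19) and the plasma membrane calcium pump Atp2b2 (-0.71 ± 0.20) fell. Both Ras regulator calls were falls, Rasgrf2 (-1.29 ± 0.27) and Diras2, in the authors' deposited table.

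Metabolic genes had 25 rises and 23 falls among 741 members (3.37% and 3.1%), against 1.51% and 1.59% of all genes. The respiratory chain and glycolysis stood on opposite sides. The mitochondrial genome encodes 13 subunits of the respiratory chain. All 13 had a positive log2 fold change at 48 h, from 0.55 to 1.27 with a median of 0.81, and 11 passed the test. mt-Co3 stood at 1.27 ± 0.19 (adjusted p = 1.08e-08), mt-Nd1 at 1.04 ± 0.18, and mt-Co1, the most abundant of them averaging 79760 counts, at 0.83 ± 0.17 in the authors' deposited table. mt-Co2 (0.55 ± 0.25) and mt-Nd4l (0.59 ± 0.21) did not pass. Together they made up 1.51% of the summed mean count. Subunits encoded in the nucleus moved less: of 92 genes 2 rose, Atp5g2 (1.004 ± 0.24) and Cox7b (0.66 ± 0.18), none fell, 71 were above 0 and the median was 0.10. Predicted genes that carry copies of mitochondrial sequence may share these reads, and 3 of them, named after their values were seen, also rose, Gm28661 (0.91 ± 0.15), Gm10925 (0.89 ± 0.20) and Gm20594 (0.94 ± 0.20), in the authors' deposited table.

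The direction of the 13 genes was not the same later. At 14 days all 13 were below 0, from -0.50 to -0.24, and 12 passed the authors' test as lower. The difference between the times passed a two-sided z test on the deposited fold changes and SE for all 13 genes. The differences ran from 0.98 to 1.67 on the log2 scale. These genes share a genome and the same libraries, so they are not 13 independent results. Without values per library, the part of library or cell quality in them was not tested. For the embryonic knockout the table's name gives E14, but the series' embryonic knockout and heterozygote libraries are labelled E17.5, which is used here. In it (knockout over heterozygote) they were above 0, from 0.28 to 0.73, and 9 of the 13 were called higher in the authors' deposited table.

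**Figure D4:**
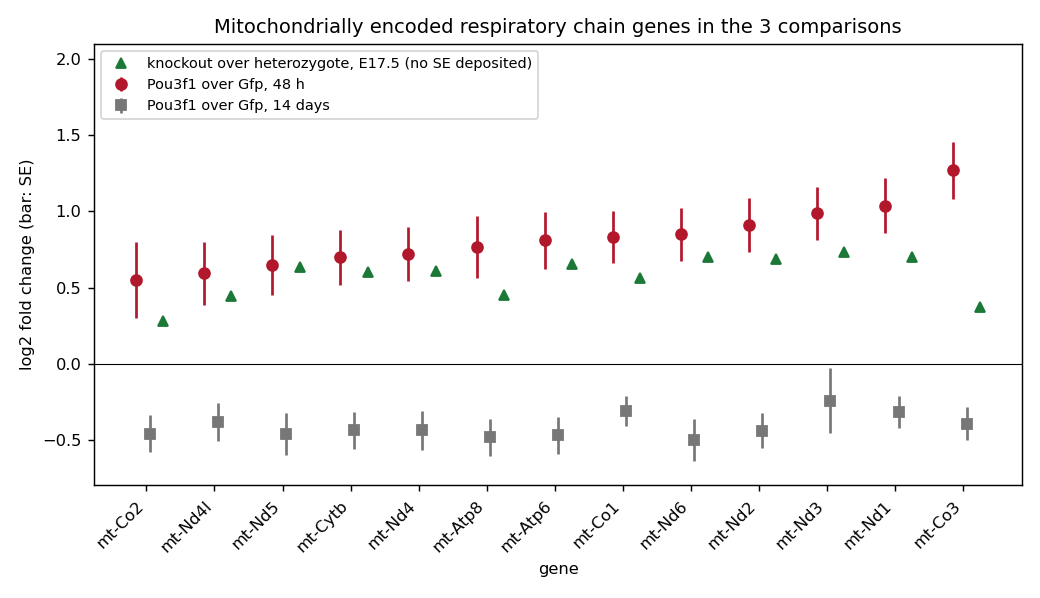
Log2 fold changes of the 13 mitochondrially encoded respiratory chain genes in the authors' 3 deposited tables, with SE bars where deposited. Values at 48 h (circles) run from 0.55 to 1.27, values at 14 days (squares) lie between -0.50 and -0.24, and those of the embryonic knockout (triangles) between 0.28 and 0.73.

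Of 40 genes of glycolysis and lactate, 4 (10%) fell, against 1.59% of all genes, and none rose. The list median of -0.30 was the lowest of the metabolic lists. Eno1 (-0.57 ± 0.16), an abundant enzyme with a mean count of 37123, Pgk1 (-0.47 ± 0.15), the regulator Pfkfb3 (-0.61 ± 0.17) and the lactate exporter Slc16a3 (-0.61 ± 0.14) fell in the authors' deposited table. Transcripts of Hif1a, an oxygen-regulated factor known to drive genes of this pathway, fell as well (-0.52 ± 0.15). The part of Hif1a in the falls of these genes was not tested. None of the 34 genes of the TCA cycle was called in either direction at the authors' adjusted p; 2 had an unadjusted p under 0.05 on the higher and 2 on the lower side in the authors' DESeq2 table.

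Lipid enzymes had more falls than rises. Of 126 genes of fatty acid and phospholipid metabolism, 3 rose and 10 fell with a median of 0.00. Scd1, which puts the first double bond into saturated fatty acids, had one of the largest rises of all, 2.62 ± 0.27 (adjusted p = 1.77e-18). Among the falls were the lipases Pla2g7 (-1.37 ± 0.26) and Pla2g5 (-1.14 ± 0.29), the acyl-CoA synthetase Acsl1 (-0.87 ± 0.22) and the acyltransferases Agpat3 (-0.86 ± 0.22) and Lpcat2 (-0.85 ± 0.21) in the authors' deposited table. Sterol synthesis genes had no call, 30 of 37 were above 0 and the median was 0.17. Enzymes that build sugar chains had 4 rises, led by the heparan sulfate sulfotransferase Hs6st3 (1.49 ± 0.29), the N-glycan branching enzyme Mgat4a (1.16 ± 0.21) and the chondroitin synthase Chsy3 (1.07 ± 0.28), and 5 falls, led by the xylosyltransferase Xylt1 (-0.95 ± 0.25) and Galnt10 (-0.69 ± 0.20), among 132 genes.

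Ass1 had the smallest adjusted p of all falls (2.50e-11) at a mean count of 1954, and in the same list the polyamine enzyme Sat2 rose (0.75 ± 0.21). Of 25 genes of the amino acid stress response 3 fell and none rose, Ddit4 (-0.83 ± 0.17) and Sesn3 (-0.59 ± 0.15), which restrain the growth kinase mTORC1, and Trib1 (-0.52 ± 0.16), in the authors' deposited table.

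Transcription factor lists had 20 rises and 25 falls among 1011 members (1.98% and 2.47%, median -0.08). These shares are near the 1.51% and 1.59% of all genes, so the factors below are single values. The HMG factors Sox21 (1.496 ± 0.30) and Sox14 (1.21 ± 0.29), the T-box factor Eomes (1.34 ± 0.24), the Ebf factors Ebf3 (1.13 ± 0.24) and Ebf1 (0.89 ± 0.20) and the homeobox factors Tshz3 (1.24 ± 0.18) and Barhl1 (1.23 ± 0.29) rose in the authors' deposited table. Eomes, Ebf1 and Ebf3 are known from young ganglion cells and, for the Ebf genes, amacrine and bipolar subtypes. The Krüppel-like factors Klf4 (1.22 ± 0.28), Klf8 (1.16 ± 0.29) and Klf14 (1.01 ± 0.27), the zinc finger factor Sall1 (1.03 ± 0.30), the LIM-only genes Lmo1 (0.92 ± 0.27) and Lmo4 (0.68 ± 0.16), the retinoic acid receptor Rarb (0.89 ± 0.21) and the orphan receptor Nr2f1 (0.69 ± 0.16) rose too.

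Several of the factors that fell are known from photoreceptors and progenitors. Of 57 bHLH factors 7 fell and none rose: the Notch targets Heyl, Hey2 and Hey1, with Id3, Hif1a, the ganglion cell competence factor Atoh7 (-0.89 ± 0.25) and the photoreceptor factor Neurod1 (-0.59 ± 0.18). Crx (-0.74 ± 0.22), which activates photoreceptor genes, Prdm1 (-0.75 ± 0.17), which favours rods over bipolar cells, and the bipolar factor Irx6 (-0.83 ± 0.22) fell in the authors' deposited table. Of 34 nuclear receptors 3 (8.82%) fell, Ppara (-0.98 ± 0.27), Rora (-0.88 ± 0.22) and Thrb (-0.86 ± 0.25), the last of these needed for M cones. Mef2d (-0.83 ± 0.21), a partner of Crx, the nuclear factor Nfix (-0.71 ± 0.21), Maf (-0.69 ± 0.21) and Foxo3 (-0.59 ± 0.15) fell too. Of 363 Zfp genes 2 (0.551%) rose and 1 (0.275%) fell, below the shares of all genes. Of 143 chromatin regulators Chd3 (0.61 ± 0.16) rose and Chd7 (-0.56 ± 0.14) and Kmt2c (-0.48 ± 0.15) fell, 0.699% and 1.4%, in the authors' deposited table.

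Of 378 cell body genes, 5 rose and 5 fell, 1.32% each, against 1.51% and 1.59% of all genes. The intermediate filament protein Synm (-1.19 ± 0.21), the neuronal motors Kif21b (-0.97 ± 0.24) and Kif1a (-0.66 ± 0.17) and the kinetochore gene Cenpf (-0.72 ± 0.17) fell, and the cell cycle inhibitor Cdkn1c (0.63 ± 0.17) and the growth cone protein Basp1 (0.49 ± 0.14) rose in the authors' deposited table. Of 78 cell cycle genes these were the 2 calls, Cdkn1c and Cenpf. None of the 80 cytosolic ribosomal protein genes passed, but 78 of the 80 were above 0 with a median of 0.21, and 16 had an unadjusted p under 0.05 as higher and 0 as lower in the authors' DESeq2 table.

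Genes that fell also had long transcripts. In GENCODE release M21, the median longest transcript was 4938 bases for the genes that fell, 3804.5 for those that rose and 3473 for all members, with a value for 99.8% of members. From the shortest to the longest of 5 equal groups of transcripts the share of genes that fell went from 0.627% to 3.34% and the median log2 fold change from 0.07 to -0.10, while the share that rose was 1.78% and 1.46% in these groups. The microglia list (8 members), the astrocyte and oligodendrocyte list (9) and the fibroblast list (3) had no call and medians of -0.30, -0.28 and -0.30, beside -0.37 for the 10 vessel members. With rarer genes included the medians were -0.17, -0.27, -0.02 and -0.30, in the same order. The part of transcript length and of these cells in the falls was not tested.

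Genes outside the lists included some of the clearest changes. Among the falls were Cln8 (-1.07 ± 0.18), a protein of the endoplasmic reticulum mutated in a lysosomal storage disease, the Pak inhibitor Inka2 (-1.03 ± 0.19), the splicing regulator Rbm20 (-1.05 ± 0.21), the scaffold gene Mpp2 (-1.06 ± 0.22), the adaptor Anks1 (-0.74 ± 0.15), the endothelial lipase Lipg (-1.16 ± 0.30) and the ciliary dynein Dnah9 (-1.09 ± 0.28). Plekha2 (-1.19 ± 0.26), Proser2 (-1.17 ± 0.23) and Fam205a3 (-1.41 ± 0.28) belonged here too, the last from a family of near-identical copies among which reads may be split, in the authors' deposited table. In all, 102 rises and 112 falls lay outside the lists of the 5 themes, 0.978% and 1.07% of the 10426 genes there.

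The 48 h values were then set beside those at 14 days (4 Gfp and 5 Pou3f1 libraries, treated and sorted alike), which come from other libraries and are shrunken separately. Of the 217 genes that rose at 48 h, 216 had an adjusted p at 14 days, and 78 (36.1%) were higher and 20 (9.26%) lower there, against 12.7% and 10.3% of all genes tested at 14 days. The 78 are 3.93% of the genes higher at 14 days. Of the 229 that fell, 49 (21.4%) were lower and 23 (10%) higher, and the 49 are 3.02% of the genes lower at 14 days. Magel2 (2.06 ± 0.27), Col25a1 (2.46 ± 0.25), Slitrk1 (1.39 ± 0.18), Ryr1 (1.82 ± 0.30), Tshz3 (1.58 ± 0.18) and Dock11 (1.31 ± 0.17) were among those higher at both times in the authors' deposited 14 day table. Il13ra1 (0.01 ± 0.30), Ddx4 (0.01 ± 0.27), Tmem196 (0.18 ± 0.21) and Tafa4 (-0.31 ± 0.17) did not pass there.

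**Figure D5:**
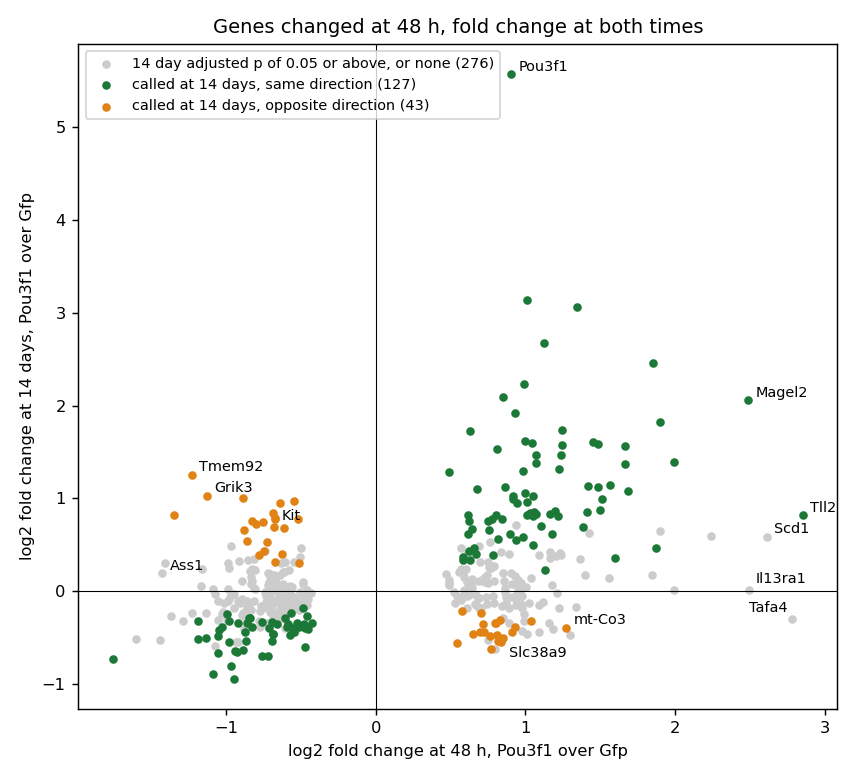
Log2 fold changes (Pou3f1 over Gfp) at 48 h and 14 days of the genes called at 48 h, from the authors' deposited tables. Most genes lie closer to 0 at 14 days; 127 were called in the same direction (green) and 43 in the opposite one (orange), while Pou3f1 stands alone at 5.57.

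A direct test of the difference used a two-sided z test per gene with Benjamini-Hochberg adjustment over the 14040 genes with a mean count of at least 10 in both tables. The fold change was higher at 48 h for 234 genes (1.67%) and lower for 639 (4.55%). Values at the 2 times were shrunken separately, and unequal shrinkage can by itself make their sizes differ. The part of shrinkage in these differences was not tested. Of the 439 genes called at 48 h and tested here, 175 passed. Among those that rose, 76 had a larger and 9 a smaller fold change at 48 h than at 14 days, and among those that fell, 90 were lower at 48 h and none lower at 14 days. Because these genes were chosen for their 48 h values, smaller values in another comparison are favoured by the choice. All 43 genes called in opposite directions passed the test of the difference. Each had been chosen for calls of opposite sign at the 2 times, so this outcome was nearly fixed by the choice and adds no evidence. Grik3 went from -1.13 ± 0.19 to 1.03 ± 0.18, the surface protein gene Tmem92 from -1.23 ± 0.22 to 1.25 ± 0.29, Tnfrsf19 from -0.89 ± 0.19 to 1.004 ± 0.30, Kit from -0.68 ± 0.15 to 0.69 ± 0.27 and Enc1, an actin-binding protein of young neurons, from -0.83 ± 0.22 to 0.75 ± 0.16 in the authors' deposited tables. Of the 20 genes higher at 48 h and lower at 14 days 10 were mitochondrially encoded, and the other 10 included Slc38a9 (0.84 ± 0.18 and -0.55 ± 0.12), Sema6c (0.71 ± 0.18 and -0.35 ± 0.14) and Ntn4 (0.54 ± 0.16 and -0.56 ± 0.15). Pou3f1 itself differed the most, at 5.57 ± 0.27 at 14 days with a mean count of 16972.

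Loss of the gene in the embryo gave another view of the same genes. In whole retinas at E17.5 (C57B6J, 2 heterozygous and 2 homozygous knockout libraries), 4.7% of all genes tested were higher and 5.34% lower in the knockout. Of the genes that rose at 48 h, 206 were tested there, with 19 (9.22%) higher and 17 (8.25%) lower, 2.73% and 2.15% of the knockout's own lists. Of the genes that fell at 48 h, 222 were tested, with 4 (1.8%) higher and 68 (30.6%) lower, the latter 8.6% of all genes lower in the knockout. Genes lower both with added Pou3f1 and without the gene included Cacng3 (-1.04), Pde3a (-0.83), Inka2 (-0.69), Nxph4 (-0.64) and Arhgap31 (-0.60) in the authors' deposited knockout table. Such genes are abundant more often, and the share lower in the knockout rose with the mean count at 48 h from 2.9% of genes between 10 and 100 to 7.05% between 1000 and 10000 and 13.1% above. The share higher in the knockout rose too, from 2.46% to 5.68% and 23.1%. The part of abundance in the overlap was not tested. Mean counts set across the 48 h and 14 day tables, which were normalized separately, differed too: relative to the median gene, genes that fell at 48 h had a median log2 ratio of 14 day over 48 h mean count of 0.66 and genes that rose of -0.52.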

How the data were processed

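RNA was measured by sequencing in 3 Gfp and 3 Pou3f1 libraries at 48 h, and the authors deposited 1 comparison table for them with no values per library. Per the submitters' processing notes the tools were Salmon, DESeq2 and MACS2 with mm10; no source used here gives versions or the design formula. The signal column is the authors' mean normalized count over the libraries of a comparison, and the sum of these means over all listed genes is 16020800 at 48 h; the depth of each library is unknown. The log2 fold changes and SE were deposited by the authors, shrunken toward 0: their SD was 0.104 for genes with a mean count under 10 and 0.309 for the members. The authors' Wald score is, checked on the values, fold change over SE, and their p-values are two-sided normal p of it, adjusted by Benjamini-Hochberg over the 14714 genes with a mean count of 7.92 or more.

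Members had a mean count of at least 10, and calls are genes with the authors' adjusted p under 0.05. No test was added within the table. The difference between 48 h and 14 days was tested per gene (z test, two-sided, both SE, Benjamini-Hochberg). The calculation was checked on simulated fold changes without shrinkage, so the check does not cover the shrinkage of the deposited values. The members, the 75 gene lists and the tests were chosen with earlier results of these data known, so list counts are descriptions without a test. Genes named are Pou3f1, the 20 with the smallest adjusted p and the 15 with the largest change in each direction (predicted genes left out), up to 6 called genes per list and direction, genes called in opposite directions at 48 h and 14 days, and up to 10 in each direction by the difference; exceptions are said beside them, and some items are not reported here. Tent5a and Ermn are named by the rule for promoters, and marker genes without a call were chosen as markers. Lists are gene symbols matched by family name, and a gene may be on several. Direction was read from Pou3f1, also for the knockout table, where it is lower. The sample labels count 14 days from electroporation, the protocol from birth. Predicted genes are those with Gm, Rik, -ps or ENSMUSG names, or sequence names such as AA623943. Promoters came from RefSeq (GRCm38.p6) and transcript lengths from GENCODE M21. Alternatives were other thresholds, adjustments and count minima. Scripts used matplotlib 3.10.9, scipy 1.17.1, pandas 2.3.3, numpy 2.4.6 and Python 3.11.15.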

Additional observations from a re-analysis of the deposited data

Results flagged for a closer look

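These results are listed because the fold change of the same contrast, Pou3f1 over Gfp, differed between 48 h and 14 days by a two-sided z test on the authors' deposited fold changes and SE, with Benjamini-Hochberg adjustment. The fold change was higher at 48 h for 234 genes and lower for 639. The values at the 2 times were shrunken separately, and the part of unequal shrinkage in the differences was not tested. The values below are the 48 h minus the 14 day log2 fold change, for every gene called in opposite directions at the 2 times and for the genes called at 48 h with the smallest adjusted p of the difference.

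Mitochondrially encoded genes stood higher at 48 h by 1.67 for mt-Co3 (adjusted p = 1.39e-11), 1.36 for mt-Nd1, 1.35 for mt-Nd6, 1.35 for mt-Nd2 and 1.28 for mt-Atp6. The same difference was 1.25 for mt-Atp8, 1.16 for mt-Nd4, 1.14 for mt-Co1, 1.14 for mt-Cytb and 1.11 for mt-Nd5.

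Among secreted and surface proteins the difference was 3.09 for the neurokine Tafa4 (adjusted p = 2.35e-17), 2.48 for the cytokine receptor Il13ra1, 1.39 for the amino acid sensor Slc38a9, 1.11 for the netrin Ntn4 and 1.07 for the semaphorin Sema6c. Of the remaining genes higher at 48 h it was 1.36 for Kank3, 1.31 for the phosphorylase kinase subunit Phkg1, 1.14 for the protein kinase C gene Prkcq, 1.14 for the nuclease gene Slx1b, 0.80 for Marf1, and 1.39 and 0.95 for the predicted genes Gm43960 and Gm13722.

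Genes lower at 48 h than at 14 days included Pou3f1, by -4.67 (adjusted p = 1.17e-31). Among surface and channel genes the difference was -2.48 for Tmem92, -2.16 for Grik3 (adjusted p = 3.19e-13), -1.89 for Tnfrsf19, -1.55 for Cacng3, -1.40 for Sdk1, -1.37 for Kit, -1.27 for Kcnd3 and -1.18 for the chloride channel gene Ttyh2. It was -1.50 for Tmem158 and -0.99 for Tmem178b, both membrane proteins. Among secreted ligands it was -1.60 for Slit1 and -1.47 for Nxph4. Among enzymes it was -1.62 for Ass1, -1.46 for Pde3a and -0.81 for the ganglioside enzyme St3gal5. For regulators it was -1.58 for Enc1, -1.53 for Maf, -1.52 for Arhgap31, -1.52 for Tbc1d9 (adjusted p = 1.39e-11), -1.30 for Trib1, -1.29 for Nckap5, -1.18 for Prdm1 and -1.02 for Sh2d3c. The difference was -2.17 for AA623943, counted here as a predicted gene.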

How the results depend on the processing

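At an adjusted p under 0.01 in place of 0.05, 121 genes were higher and 109 lower at 48 h, and 95 fold changes were higher and 341 lower at 48 h than at 14 days. Under the other alternatives each of the 4 counts stayed within 1.5 times its reported value. Those at 48 h ran from 191 to 226 for higher and from 180 to 231 for lower genes under another adjustment, a mean count minimum of 50 or none, removal of predicted genes, the median fold change taken as 0, and, chosen after seeing the data, removal of mitochondrially encoded genes. For single genes the settings change only the adjustment or subtract a median of -0.007, so no called gene could change direction. None of the 254 named genes did. With adjustment over all genes with a p-value, 39 of them no longer passed, among them Hey1, Nrarp, Crx, Neurod1, Insr, Pgk1, Trib1 and mt-Nd5, and with the median taken as 0, 6 no longer passed, among them Ddr1, Pgk1 and St3gal5. No paired analysis was possible because the file holds no values per library, and for the same reason the fit with a replicate block and leaving out each replicate were not run. The spread between libraries, the depth of each and any library that stands apart could not be seen, and shrunken fold changes understate sizes at low counts.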

Other observations

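The genes named here were chosen after their values were seen, and no list of genes with like roles was drawn up, so they are single values that say nothing of a group. Crb1 (-0.71 ± 0.19) and Crb2 (-0.58 ± 0.18), whose proteins hold the outer limiting membrane of the retina together, were lower at 48 h in the authors' deposited table, as was the apical constriction gene Shroom3 (-0.76 ± 0.20). The ribbon synapse complexin Cplx3 was at -0.81 ± 0.20, the active zone scaffold Bsn at -0.48 ± 0.15 and the postsynaptic scaffold Dlg2 at -0.92 ± 0.21. The surface glycoprotein genes Cd44 and Cd200 were at 0.93 ± 0.21 and 1.09 ± 0.24.

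The vomeronasal receptor gene Vmn1r13 had a mean count of 5826 at 48 h and 26.4 at 14 days, the olfactory receptor gene Olfr620 252 and 2.60, and the predicted gene Gm43960 4661 and 75.5 in the authors' deposited tables, which were normalized separately. At 48 h these 3 genes rose, by 0.87 ± 0.24, 0.85 ± 0.24 and 0.77 ± 0.22 on the log2 scale.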
